A study of Drosophila melanogaster with 3 samples.

Results

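Heat-shock and chaperone genes of the fruit fly Drosophila melanogaster were described by the places where tagged Fru protein was found in and around them. The genes, chosen by name, were Hsp22, Hsp23, Hsp26, Hsp27, Hsp67Ba, Hsp67Bc, Hsp68, Hsp83, Hsc70-4 and Hsf, 10 of the 13968 protein-coding genes in the annotation. Each gene was taken with 5 kb on either side, and the 6 genes of the small heat-shock cluster at cytological position 67B on chromosome 3L were treated as 1 window, so that 5 windows with a total of 78766 bp were examined. Chromatin came from whole wandering larvae of the third instar, a single group of 3 biological replicates with males and females pooled. All 3 carried the same fru-MiMIC-GFP line, in which an eGFP exon inserted in a fru intron makes a Fru-GFP fusion from the gene's own locus, and an antibody to GFP was used for ChIP-seq. No untagged, heat-shocked or other comparison group was analysed here, and a whole animal mixes tissues, so a summit cannot be assigned to a cell type.

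Heat-shock proteins are molecular chaperones that keep other proteins folded or hold them until they can be refolded. Under heat, the transcription factor encoded by Hsf trimerises and binds rows of alternating nGAAn units, called heat-shock elements, upstream of its target genes, where GAGA factor bound to GAGA repeats helps keep the promoter open and RNA polymerase paused. The small heat-shock genes of 67B are also switched on by the steroid ecdysone late in larval life, without heat. Fru belongs to the BTB zinc-finger transcription factors and is best known for its part in male courtship behaviour.

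Promoter stretches of 4 members are shown first, because they set the strongest promoter summit of the group against a promoter dense in heat-shock units that had no region in the pooled list. They were read from the RefSeq Release 6 genome, which has the coordinates of dm6, 5′ to 3′ on the strand of the gene. Capitals mark heat-shock pairs (GAANNTTC or TTCNNGAA) and GAGA words (GAGAG or its reverse complement CTCTC). The Hsp27 stretch, chr3L:9383713-9384012 on the plus strand, runs from 350 to 51 bp upstream of the transcription start site (TSS), with the summit at base 207. The Hsp26 stretch, chr3L:9377428-9377677 on the minus strand, runs from 250 to 1 bp upstream, with the summit at base 94. The Hsp23 stretch, chr3L:9381632-9381910 on the plus strand, runs from 250 bp upstream to 28 bp downstream, with the summit at base 255. The Hsp68 stretch, chr3R:24057311-24057560 on the minus strand, runs from 250 to 1 bp upstream and holds no summit of the pooled list.
Hsp27: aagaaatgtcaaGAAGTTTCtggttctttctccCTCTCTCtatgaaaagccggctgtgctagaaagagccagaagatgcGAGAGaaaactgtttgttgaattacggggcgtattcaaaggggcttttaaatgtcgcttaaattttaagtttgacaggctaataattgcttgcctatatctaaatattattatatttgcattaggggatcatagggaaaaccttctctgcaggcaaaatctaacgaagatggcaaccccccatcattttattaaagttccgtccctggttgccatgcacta
Hsp26: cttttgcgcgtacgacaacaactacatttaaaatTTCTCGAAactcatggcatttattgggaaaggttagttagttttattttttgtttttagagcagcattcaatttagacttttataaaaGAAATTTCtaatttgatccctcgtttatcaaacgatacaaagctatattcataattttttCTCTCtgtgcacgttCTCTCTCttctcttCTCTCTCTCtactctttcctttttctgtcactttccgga
Hsp23: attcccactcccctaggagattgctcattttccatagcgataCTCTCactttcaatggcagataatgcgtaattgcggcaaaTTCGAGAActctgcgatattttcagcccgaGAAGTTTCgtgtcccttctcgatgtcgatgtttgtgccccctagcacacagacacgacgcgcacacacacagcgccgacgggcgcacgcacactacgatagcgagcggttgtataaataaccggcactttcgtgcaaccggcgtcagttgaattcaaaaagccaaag
Hsp68: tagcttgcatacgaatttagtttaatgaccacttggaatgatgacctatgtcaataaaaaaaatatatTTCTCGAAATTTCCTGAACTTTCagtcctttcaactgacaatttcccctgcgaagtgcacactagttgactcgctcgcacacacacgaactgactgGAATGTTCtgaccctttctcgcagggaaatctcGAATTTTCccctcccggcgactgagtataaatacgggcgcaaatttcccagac

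The values that follow are the authors'. The authors called 30000 regions in each replicate and 30000 in the reads of all replicates pooled. Of the pooled regions, the 8996 of highest signal value make up the authors' thresholded list, chosen for reproducibility between replicates. Each region has a summit, its point of highest signal, and a signal value whose scale is not stated, so regions are described by their place in a list (1 is the highest signal value). The threshold lay at a signal value of 104.5. Depth is unknown because the lists hold no read counts.

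Within 500 bp of an annotated TSS, Hsp22, Hsp23, Hsp26, Hsp27, Hsp83 and Hsc70-4 had a thresholded summit, and Hsp67Ba, Hsp67Bc, Hsp68 and Hsf had none. These 6 of 10 members stand beside 24.6% of all protein-coding genes, or 3436 of 13968. When a summit also had to lie within 100 bp of one among the 8996 strongest regions of every replicate, Hsp22, Hsp26, Hsp27 and Hsp83 remained, 4 of 10, beside 16.7% of all protein-coding genes. Any thresholded summit in the gene or within 5 kb of it was found for 10 of 10 members, beside 56.0% of all protein-coding genes. Neighbouring members share summits in this wider count, so it is not a count of 10 separate sites. For Hsp68 and Hsf the only such summit lay at the starts of other genes, and with 2 kb on either side the count was 8. The median number of thresholded summits per gene with its flanks was 2.5 over the members and 1 over all protein-coding genes. Including the pooled regions that did not pass the threshold, 7 of 10 members had a promoter summit and 10 of 10 a summit in the wider span, beside 40.1% and 76.1% of all protein-coding genes.

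The windows held 13 thresholded summits of 21 in the pooled list. That is 165 thresholded summits per Mb, against 67.2 per Mb over the main chromosome arms. Of the 13, 11 lay in promoters and 2 in introns. The nearest TSS belonged to a member for 7 summits and to another gene for the other 6. Density differed between windows, from 284 per Mb around Hsp83 and 207 in the small heat-shock cluster to 69.8 around Hsf. Since the windows are centred on genes, the density is a description of these windows only.

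In the 67B cluster (dm6, 3L from 9366511 to 9390694), 5 of 10 pooled summits passed the threshold. Their signal values differed widely between neighbouring genes. The cluster's summits in order along the chromosome lay at Hsp22, Hsp26, the antisense transcript over Hsp67Ba, Hsp23 and Hsp27.

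**Figure D1:**
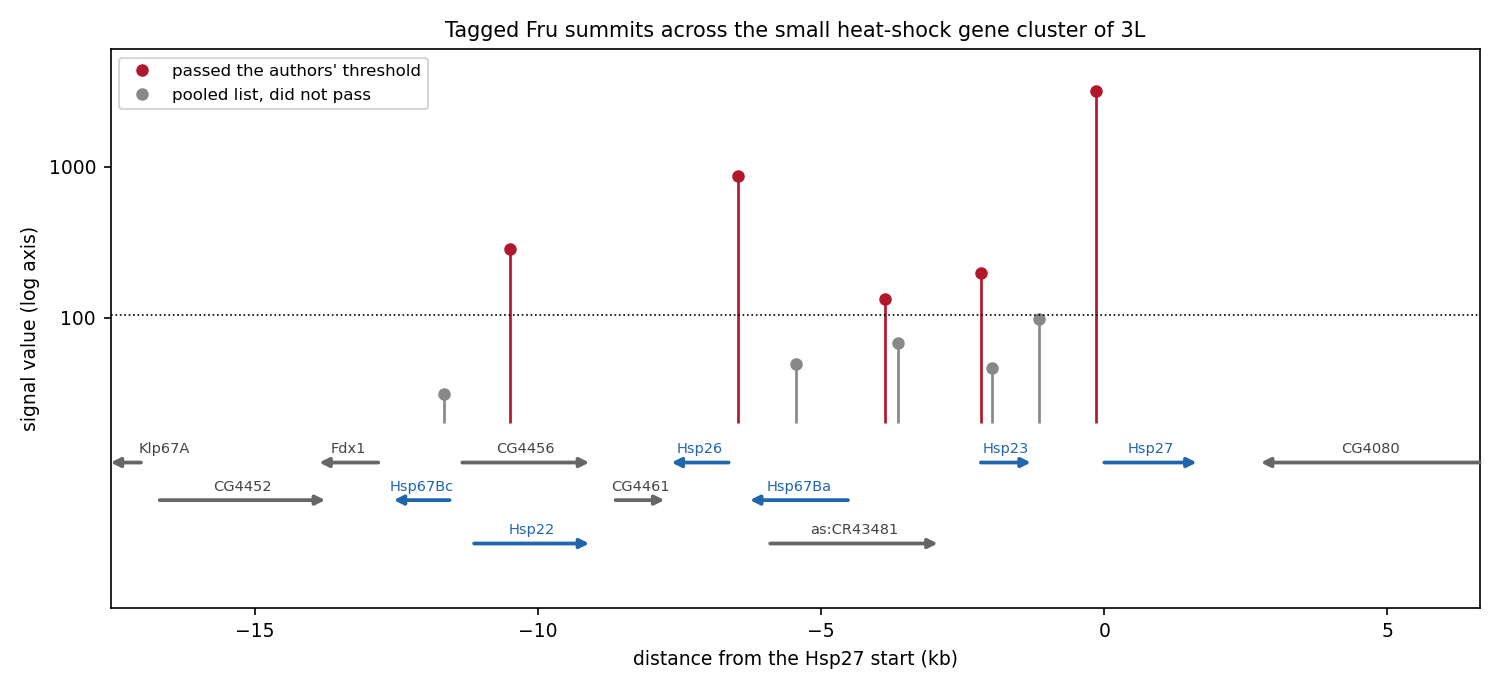
Signal value in the pooled list (log axis) of each summit across the 67B cluster, against distance from the Hsp27 start in kb; red points passed the authors' threshold, grey points did not, the dotted line is the lowest thresholded value, and arrows are genes with members in blue. The Hsp27 summit, at 3170, stands above the Hsp26 summit at 864 and the 3 other thresholded summits at 133 to 287.

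Hsp27 (FBgn0001226, a small heat-shock protein found in the nucleus) had the strongest summit of any member. Its region, 9383600 to 9384142, was 543 bp wide with the summit at 9383919, in intergenic DNA 144 bp upstream of the TSS. The signal value was 3170, place 19 in the pooled list, and only 13 protein-coding genes had a promoter summit at a stronger place. In replicates 1, 2 and 3 the summit was at places 29, 25 and 16, with signal values of 848, 898 and 1430 in their separate lists. The 3 replicate summits fell within 31 bp of each other. In the printed stretch, the nearest heat-shock pair is GAAGTTTC at 338 to 331 bp upstream, 190 bp from the summit.

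Hsp26 (FBgn0001225), a cytoplasmic small heat-shock protein, followed at place 488 with a signal value of 864. Its summit at 9377584 lay 157 bp upstream of the TSS, in the region 9377368 to 9377738. Places in replicates 1, 2 and 3 were 617, 357 and 539, with signal values of 207, 299 and 385. All 3 replicate values put the Hsp26 summit among the strongest regions, and far below the Hsp27 summit of the same list. The summit has GAAATTTC 128 to 121 bp upstream of the TSS within its 101 bp window, while the long CTCTC run of the printed sequence lies between the summit and the start.

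Hsp22 (FBgn0001223), a small heat-shock protein of mitochondria, had its summit at 9373560 with a signal value of 287, place 2862. Places were 4221, 3624 and 2290 in replicates 1, 2 and 3. The summit lay 437 bp upstream of the downstream one of its annotated TSSs, at 9373997. It also lay inside the annotated spans of both Hsp22, which starts at 9372931, and CG4456 (Hsp67Bb). The nearest CG4456 TSS was 629 bp upstream of the summit. CG4456 and Hsp22 overlap on the same strand, so which of the overlapping genes the summit belongs to is uncertain.

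Hsp23 (FBgn0001224), another cytoplasmic small heat-shock protein, had a summit 4 bp downstream of its TSS, at 9381886, with a signal value of 199 and place 4567. Replicates 2 and 3 had it at places 3713 and 4061. Replicate 1 had no summit within 100 bp, and its nearest lay 131 bp further downstream at place 6681. A weaker pooled summit at 9382087, place 18282, lay close to that position. A region between Hsp23 and Hsp27, with its summit at 9382906 and a signal value of 98.7, was just outside the threshold at place 9488.

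Hsp67Ba (FBgn0001227) and Hsp67Bc (FBgn0001229), small heat-shock relatives of the same cluster, had no thresholded summit within 500 bp of their TSSs. The nearest to Hsp67Ba, at 9380184, lay 650 bp upstream of its TSS and 175 bp upstream of a start of asRNA:CR43481, the antisense transcript that overlaps the gene. Its signal value was 133 at place 7066, and its places were 12104, 7573 and 6499 in replicates 1, 2 and 3, so replicate 1 had it outside the strongest 8996. ChIP-seq carries no strand, so the summit cannot be assigned to either transcript. At Hsp67Bc a pooled region 94 bp downstream of the TSS was at place 25062, far below the threshold. No replicate had a summit within 100 bp of it, and the nearest in replicate 3, 371 bp away, was at place 23376.

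Hsp83 (FBgn0001233; 3L from 3192969 to 3197059, plus strand) encodes the fly's cytosolic HSP90, which folds kinases and steroid receptors and is abundant without heat. All 4 summits of its window passed the threshold. The promoter summit at 3193111, in the region 3192914 to 3193279, had a signal value of 869 and place 481. It lay 105 bp upstream of the downstream TSS and inside the gene, which starts at 3192969. Places in replicates 1, 2 and 3 were 539, 383 and 598, and the replicate summits fell within 16 bp of each other.

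A second Hsp83 summit, at 3194269, lay in an intron 1053 bp downstream of the nearer TSS, with a signal value of 741 and place 647. Its places were 1186, 1155 and 363 in replicates 1, 2 and 3. Replicates 1 and 2 ranked the promoter summit higher, and replicate 3 ranked the intron summit higher, so the order of the Hsp83 pair was not stable across replicates. The order of the Hsp83 and Hsp26 promoter summits also differed between replicates. The remaining summits of the Hsp83 window belonged to neighbours. The summit at 3199171 (signal value 570, place 1012) lay 81 bp downstream of the TSS of gry, which encodes a TRAPP trafficking subunit, and 124 bp upstream of that of CG32276. The one at 3197706 (179, place 5145) lay 75 bp upstream of CG14966.

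The Hsp83 intron summit and the Hsc70-4 summit described next are shown with 50 bases on each side, on the plus strand, because they are the AT-rich and the GC-rich case among the members' own summits. The Hsp83 stretch, chr3L:3194219-3194319, has 20.8% G+C, and the Hsc70-4 stretch, chr3R:15243551-15243651, has 55.4%. Neither holds a heat-shock pair or a GAGA word, and the capitals mark the E-box CACGTG.
Hsp83 intron: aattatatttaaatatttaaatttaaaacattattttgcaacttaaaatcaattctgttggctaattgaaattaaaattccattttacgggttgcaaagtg
Hsc70-4: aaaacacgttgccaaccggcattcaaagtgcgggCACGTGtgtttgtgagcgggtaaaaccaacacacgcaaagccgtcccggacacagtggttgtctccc

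Hsc70-4 (FBgn0266599; 3R from 15242687 to 15246614, plus strand) encodes the main cytosolic HSP70 made without heat, which among other tasks strips clathrin from vesicles. Its summit at 15243601 was the weakest of the members' promoter summits, with a signal value of 105, place 8968 of 8996 and 2.93 in the column read here as −log10 q. It lay 403 bp downstream of the nearest of 6 annotated TSSs. Replicate 3 had it at place 9137, just outside its strongest 8996 regions. Replicates 1 and 2 had no summit within 100 bp. Their nearest lay 146 and 135 bp further downstream, at places 17109 and 8336, close to a second pooled summit at 15243801 that did not pass (place 23679). Within 500 bp of any Hsc70-4 TSS, the strongest summit of replicate 2 was at place 4722. The other thresholded summit of the window, at 15250669 (237, place 3665), was in an intron of CG42404, 575 bp from its TSS.

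Hsp68 (FBgn0001230; 3R from 24055080 to 24057310, minus strand) encodes a heat-inducible HSP70. No pooled region had a summit within 500 bp of its TSS, and among the replicate lists only replicate 2 had one, at place 25812. The window nevertheless held the second strongest summit of the set, at 24050779, with a signal value of 1965 and place 71. Its places were 119, 36 and 110 in replicates 1, 2 and 3. This summit lay 6531 bp from the Hsp68 TSS, beyond the 3′ end of the gene, at the shared start of Atg6 and Pisd. Atg6, the fly relative of Beclin, acts in autophagy, and Pisd makes the phospholipid phosphatidylethanolamine. The summit was 3 bp downstream of the Atg6 TSS and 4 bp upstream of the Pisd TSS.

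**Figure D2:**
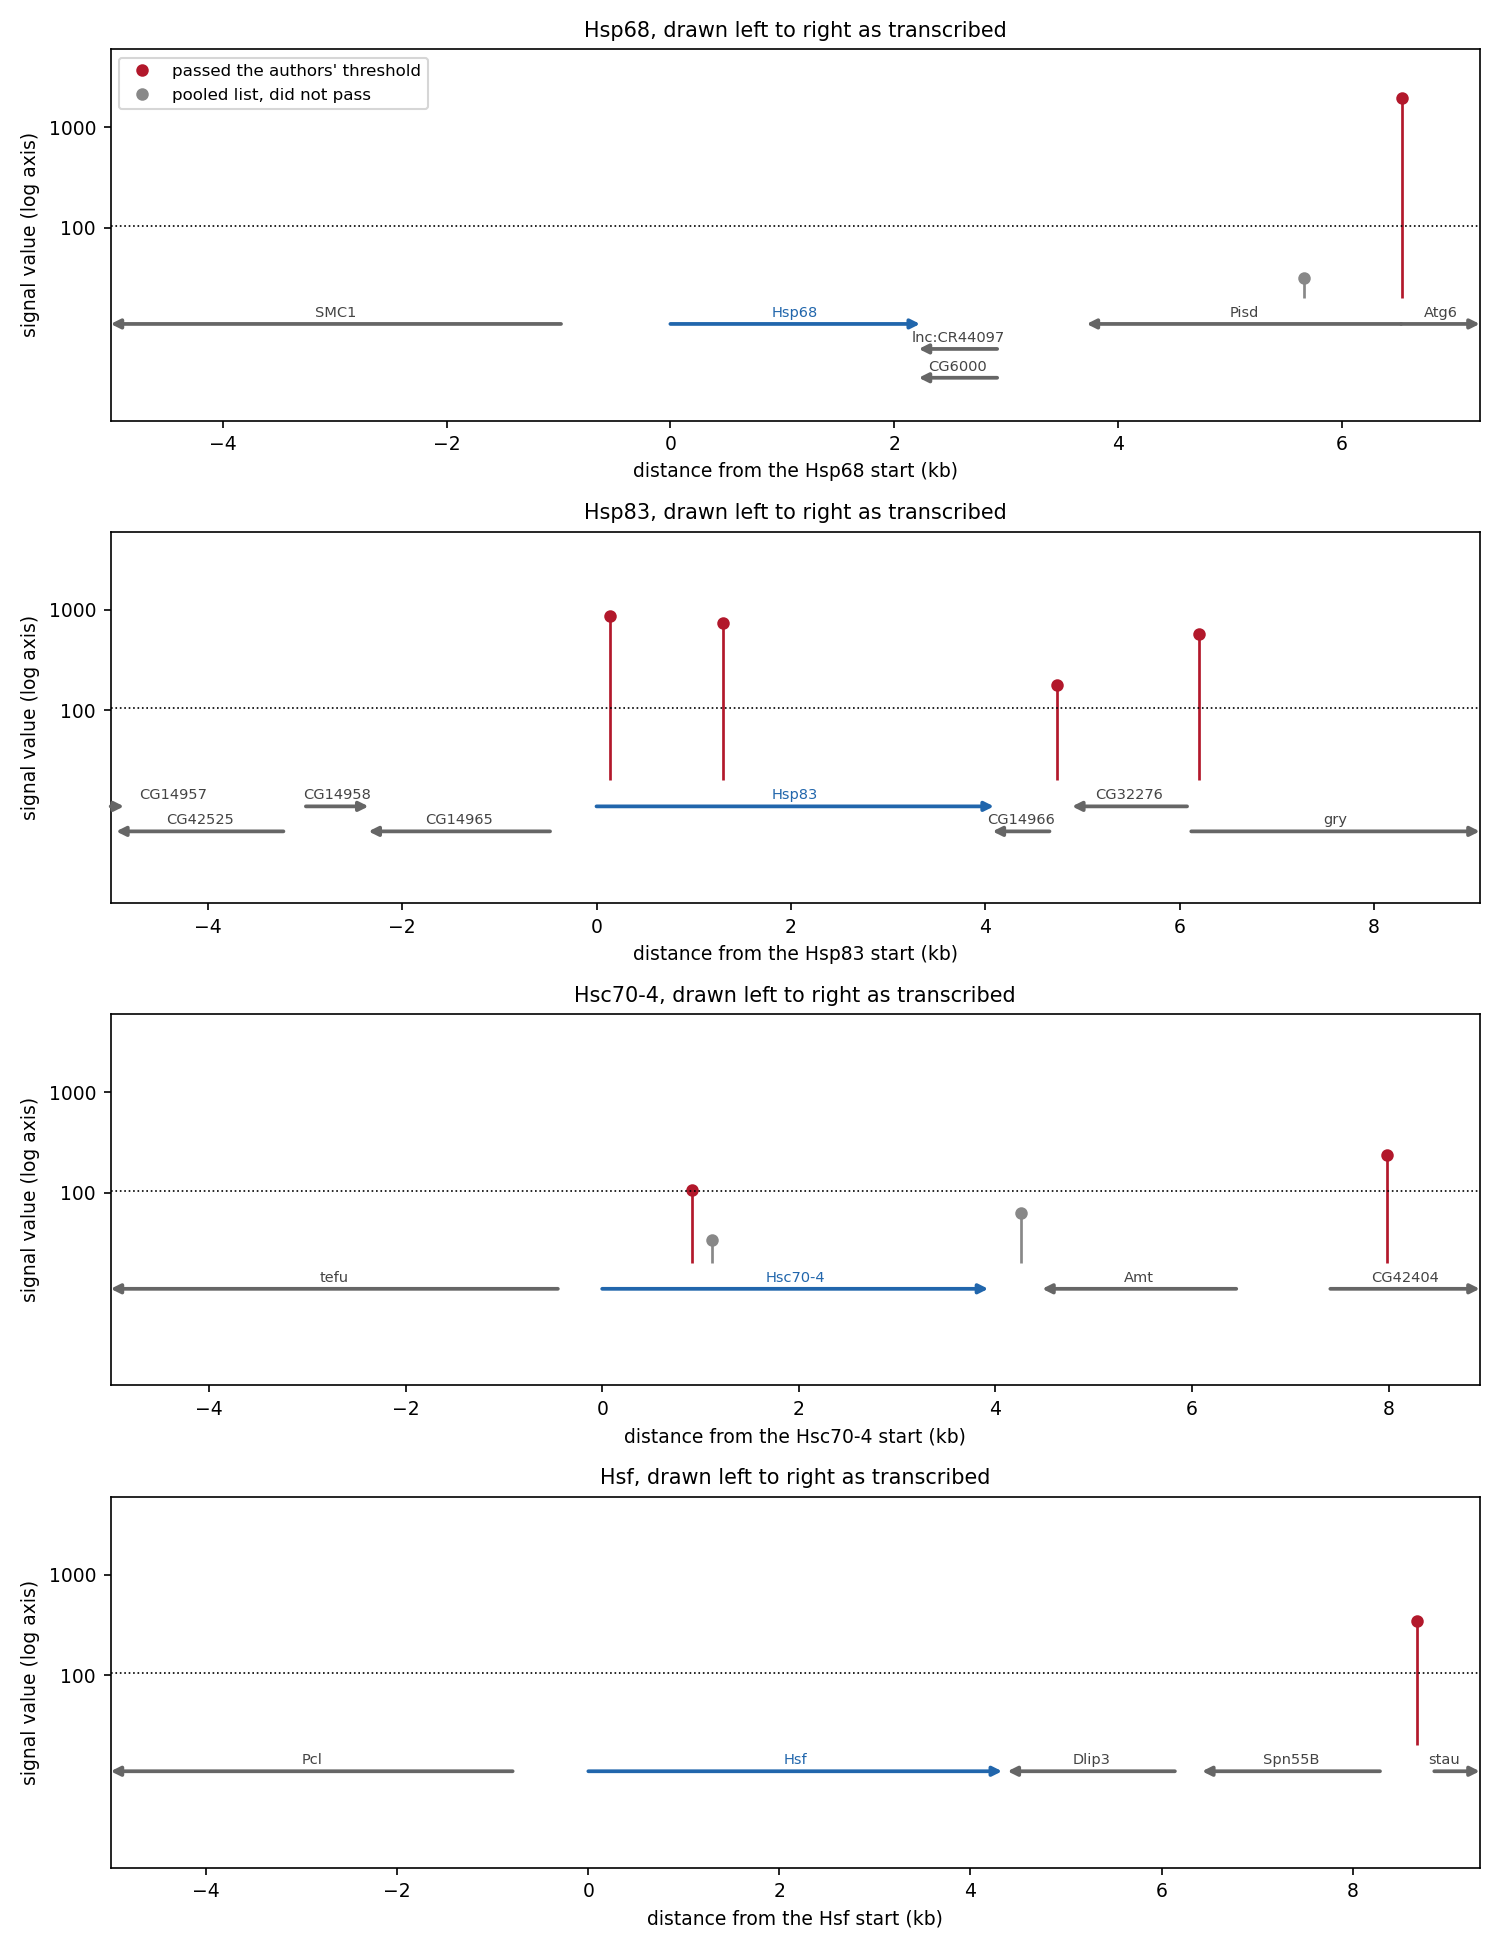
Signal value in the pooled list (log axis) of each summit around Hsp68, Hsp83, Hsc70-4 and Hsf, against distance from the gene start in kb along the direction of transcription; red points passed the authors' threshold, grey points did not, and the dotted line is the lowest thresholded value. Hsp83 has summits at its promoter and in its body, whereas the only thresholded summits near Hsp68 and Hsf lie at the starts of other genes.

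Hsf (FBgn0001222), which encodes the heat-shock transcription factor itself, had no region within 500 bp of its TSS in the pooled list or in any replicate list. The only pooled summit of its window, at 18125958 (signal value 346, place 2170), lay 8676 bp downstream of the Hsf TSS, beyond the 3′ end of the gene. It lay between the starts of stau, which encodes the RNA-binding protein Staufen, and the serpin gene Spn55B, 179 bp upstream of the first and 389 bp upstream of the second. Replicates 1 and 2 had it at places 1617 and 2463. In replicate 3 the nearest summit was 14883 bp away.

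Taking each member's strongest promoter summit, the order was Hsp27, Hsp83, Hsp26, Hsp22, Hsp23 and Hsc70-4. Hsp27 was first and Hsp83 with Hsp26 next in every replicate. Hsp83 and Hsp26, at places 481 and 488, changed order between replicates. Hsp22 was ahead of Hsp23 in each of the 3 lists (place 4221 against 6681, 3624 against 3713, and 2290 against 4061), with places close together in replicate 2. The median place over these 6 members was 1675, and over all 3436 protein-coding genes with a thresholded promoter summit it was 3303. The numbers of genes with a stronger promoter summit were 13 for Hsp27, 321 for Hsp83, 325 for Hsp26, 1548 for Hsp22, 2193 for Hsp23 and 3431 for Hsc70-4.

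**Figure D3:**
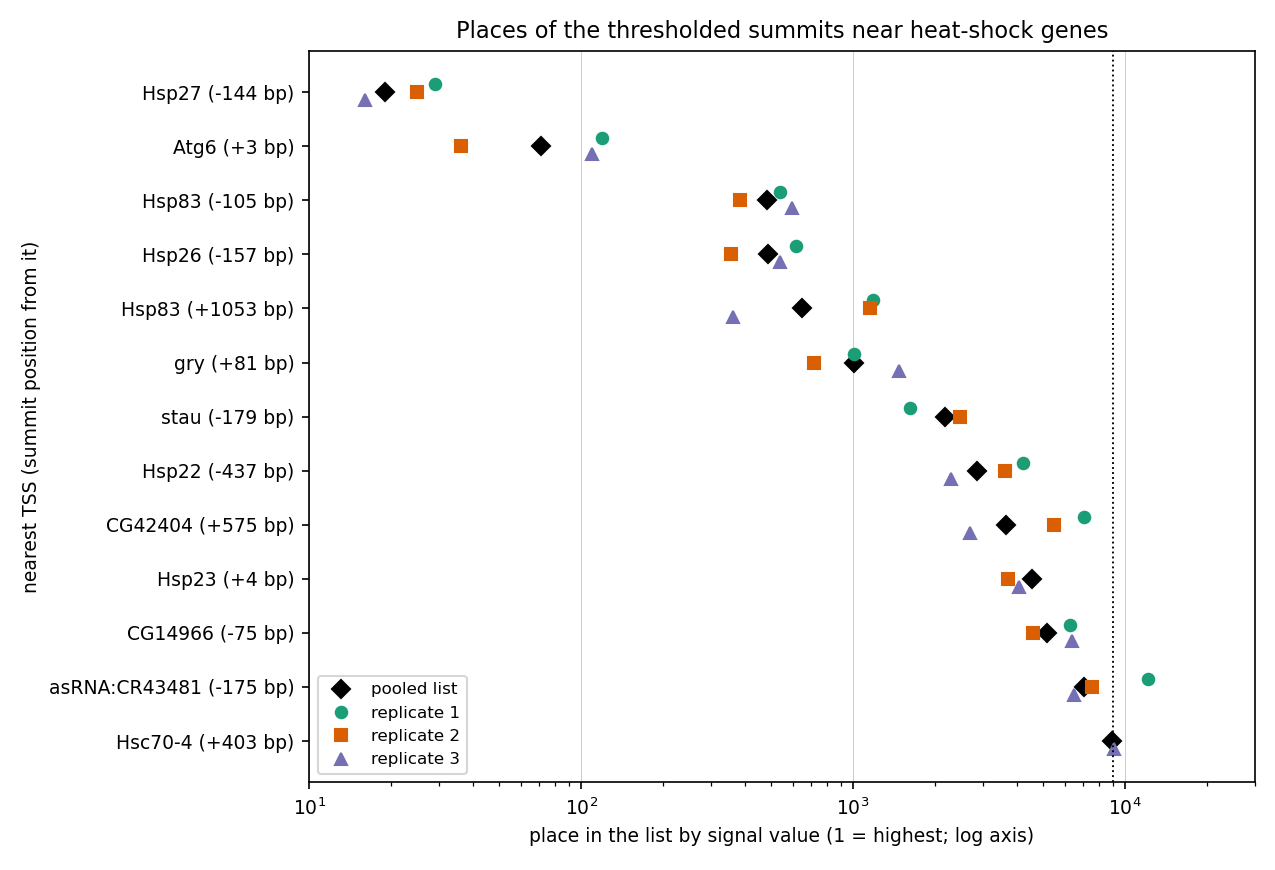
Place of each thresholded window summit by signal value (log axis, 1 is the highest) in the pooled list and in replicates 1 to 3; rows are named by the nearest TSS with the summit's distance from it, a missing symbol is a replicate with no summit within 100 bp, and the dotted line is place 8996. The Hsp27 summit lies between places 16 and 29 in all 4 lists, and the Hsc70-4 summit sits at the dotted line.

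Of the 13 thresholded window summits, 10, 12 and 11 were matched within 100 bp among the strongest 8996 regions of replicates 1, 2 and 3, and 9 (69.2%) in all 3. The 4 that were not matched in all 3 were those at Hsp23, Hsc70-4, asRNA:CR43481 and stau. Over all thresholded summits the share not matched in all 3 was 42.0%. Where a window summit was found in all 3 whole lists, which held for 10, the highest of its places was a median of 1.85 times the lowest, against 1.79 times over all 7538 such summits. The corresponding median spread of summit positions was 49.5 bp, against 47 bp. These summits therefore varied between replicates about as much as thresholded summits in general.

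Position relative to the start was compared with promoter summits at large. The Hsp27, Hsp26 and Hsp83 summits, at 144, 157 and 105 bp upstream, fell within the middle range of all genes. Over 3329 thresholded summits within 500 bp of a protein-coding TSS, the median was 96 bp upstream, with quartiles at 198 bp upstream and 6 bp downstream, and 73.9% lay upstream. Hsp23, at 4 bp downstream, was near the edge of that range, while Hsp22, at 437 bp upstream, and Hsc70-4, at 403 bp downstream, were outside it.

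Sequence words were counted on both strands. Within the 300 bp from 250 bp before to 50 bp after any TSS, GAANNTTC was found in 7 of 10 members (all but Hsp27, Hsp67Ba and Hsf) and in 12.0% of protein-coding genes. TTCNNGAA was found in 4 members (Hsp23, Hsp26, Hsp68 and Hsc70-4) and in 9.95% of genes. A row of 3 heat-shock units, which contains both pairs, was found in Hsp68 and Hsc70-4 and in 0.566% of genes. GAGAG was found in 4 members (Hsp22, Hsp23, Hsp26 and Hsc70-4) and in 36.2% of genes. The TATA word TATAAA was found in 8 members and 51.2% of genes, the DRE word TATCGATA in Hsp83 and 10.2% of genes, and GGTCACACT, known as motif 1, in none of the members and 6.77% of genes. Among genes with a thresholded promoter summit 14.0% held GAANNTTC, and among those without one 11.3%. The same shares for GAGAG were 47.8% and 32.5%. A gene with more annotated TSSs has more stretches searched for words and for summits. These shares were not compared at a matched number of TSSs.

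The number of heat-shock pairs and the place of the promoter summit were set side by side, from 500 bp before to 200 bp after the TSS used. Hsp68 had the most, 6 pairs, including overlapping rows of 3 units from 182 to 160 bp upstream, and no pooled summit. Hsp26 and Hsc70-4 had 5 pairs each, with summits at places 488 and 8968. The nearest pair on either side, counted or not, was 32 bp from the Hsp26 summit and 176 bp from the Hsc70-4 summit. The Hsc70-4 summit, 403 bp downstream of the TSS, lay outside the stretch in which pairs were counted, as did its nearest pair. Hsp22 and Hsp23 had 4 pairs each, with summits at places 2862 and 4567. Hsp27 and Hsp83 had 1 pair each, with summits at places 19 and 481. Hsp67Bc and Hsf, also with 1, had no thresholded promoter summit. Hsp67Ba had 0 pairs and no promoter summit in the pooled list. These are 10 genes described one by one, and a match to a word is not evidence of a bound site. Only exact matches were counted, so a low count of pairs is not evidence that a promoter lacks heat-shock elements.

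**Figure D4:**
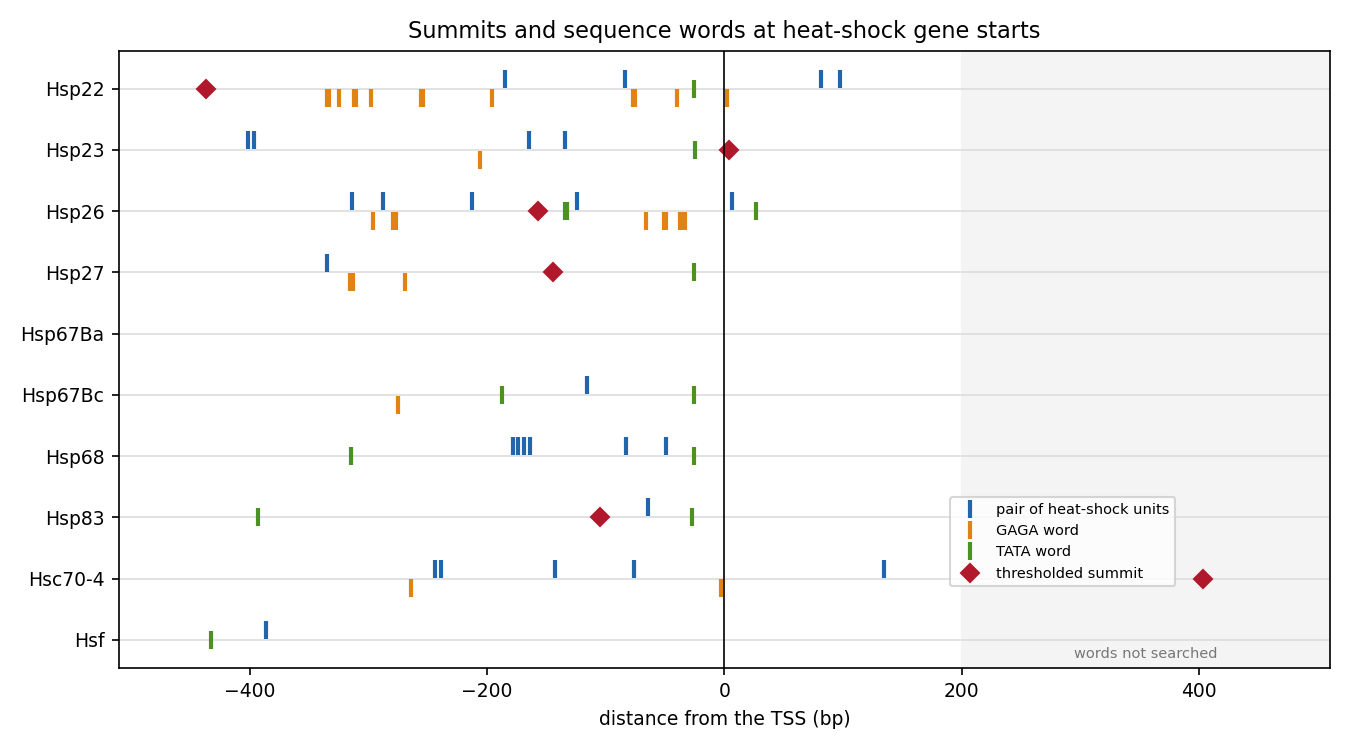
Thresholded summits (red diamonds) and sequence words (ticks: heat-shock pairs blue, GAGA words orange, TATA words green) at the 10 members, against distance in bp from the TSS nearest the summit, or from the gene start where there is no promoter summit. Exact matches to the words were searched from 500 bp before to 200 bp after the start. Hsp68 has 6 heat-shock pairs, some of them overlapping, and no summit. The Hsp27 summit lies 144 bp upstream with its only exact pair at 338 bp.

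Under the summits themselves, within 50 bp, GAANNTTC was found at 2 of 13 window summits (Hsp26 and the Hsp83 promoter, where GAAGTTTC lies 68 to 61 bp upstream of the TSS). This is 15.4%, against 3.0% of all thresholded summits and 2.63% of pooled summits that did not pass. TTCNNGAA was found at 1 of 13 (CG42404), against 2.87% of all thresholded summits. No window summit had a row of 3 units, against 0.145%. GAGAG was under 1 of 13 summits (7.69%, against 12.6% of all thresholded summits and 12.7% of pooled summits that did not pass). TATAAA was under 2 (15.4%, against 19.2%) and CACGTG under 1, at Hsc70-4 (7.69%, against 0.789%). Neither TATCGATA nor GGTCACACT was under any. With 13 summits, a single summit moves a share by 7.69 percentage points, so none of these differences is given as a result about the members. The median distance from a summit to the nearest heat-shock pair was 190 bp over the 13, against 696 bp over all thresholded summits and 698 bp over those that did not pass. It ranged from 32 bp at Hsp26 and 40 bp at the Hsp83 promoter to 2898 bp at stau. Member promoters hold such pairs more often than those of other genes, and the distance was not compared at a matched density of pairs. The median G+C share within 50 bp was 33.7% at the 13 summits and 34.7% at all thresholded summits. It was 47.5% at the 8 window summits that did not pass and 38.6% at all 21004 pooled summits that did not pass.

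Other chaperone genes were described from a wider list of 69 symbols, of which 63 genes were matched and counted. A thresholded promoter summit was found at 16 of 63, or 25.4%, close to the 24.6% of all protein-coding genes. These 63 leave out the 10 members, and the difference was not tested. The list holds 1 noncoding gene, lncRNA:Hsromega. The family counts that follow stand beside the same 24.6%. Families held at most 15 genes, and differences between them were not tested.

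By family, the J-domain (HSP40) cochaperones, which hand substrates to HSP70, had a thresholded promoter summit at 6 of 14. They were mrj (place 338), DnaJ-H (3714), Csp (4640), Tpr2 (4825), Droj2 (4858) and DnaJ-1 (6987). Among others, CG2887 and CG3061 had only pooled promoter summits that did not pass, at places 15036 and 9719. With pooled regions that did not pass included, 12 of 14 had a promoter summit, beside 40.1% of all protein-coding genes. For mrj, places in replicates 1, 2 and 3 were 495, 330 and 384. DnaJ-1, a heat-inducible partner of HSP70, had no summit within 100 bp in replicate 3, and DnaJ-H was at place 17824 in replicate 2.

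The HSP70 family and its regulators had a thresholded promoter summit at 3 of 15, beside 24.6% of all protein-coding genes. Hsc70-5, the mitochondrial HSP70, was at place 1145, the BAG cochaperone stv at 3794 and Hsc70-3, the HSP70 of the endoplasmic reticulum, at 7453. In replicate 2 no summit of stv was found within 100 bp. HIP and HIP-R, close paralogs that may share reads, had no thresholded promoter summit. HIP-R had a pooled one that did not pass, at place 15709. The 6 Hsp70 copies, from Hsp70Aa to Hsp70Bc, had no region summit in their gene bodies in the pooled list or any replicate list. Within 5 kb, the pooled list had 1 summit for Hsp70Ab and 1 for Hsp70Bc. Every copy but Hsp70Ba had a summit within 5 kb in at least 1 replicate list, and neighbouring copies can share a summit. Reads from near-identical copies cannot be placed with certainty, so the lack of summits in the gene bodies is uncertain and not a measured absence.

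Small heat-shock and alpha-crystallin relatives outside the member list had a thresholded promoter summit at 1 of 7, CG14207 (place 5575). There was none at CG13133 and CG43851 among others. HSP90 relatives and cochaperones had one at 2 of 13, the myosin chaperone unc-45 (5684) and CG1416, listed as Aha1, an activator of HSP90 (5715), with none at Cdc37 and Fkbp39 among others. Chaperonins had one at 3 of 13, the HSP10 gene CG11267 (2715), CCT5 (4407) and the mitochondrial chaperonin Hsp60A (5601), with none at CCT1 and CCT2 among others. lncRNA:Hsromega, the noncoding heat-shock RNA that organises nuclear speckles, was at place 1419, with places 1398 and 1284 in replicates 1 and 3 and no match within 100 bp in replicate 2. None of the 16 was at as strong a place as Hsp27, and mrj alone was stronger than Hsp83 and Hsp26.

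**Figure D5:**
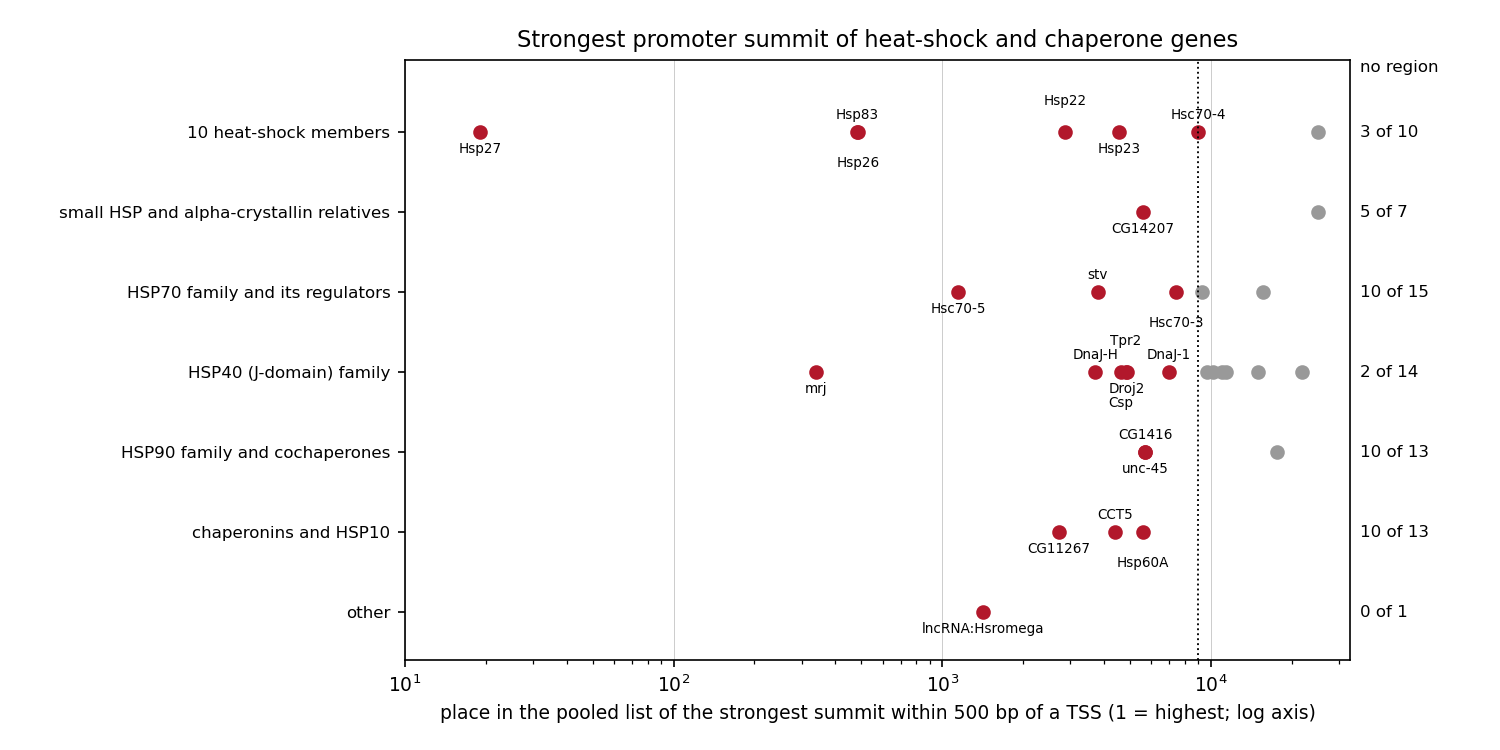
Place in the pooled list (log axis, 1 is the highest signal value) of the strongest summit within 500 bp of a TSS, by gene family; red points passed the authors' threshold, grey points did not, the dotted line is place 8996, and the right margin gives the genes with no region. Hsp27 at place 19 stands to the left of every other chaperone gene, and most families have more genes without a thresholded summit than with one.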

How the data were processed

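Regions were deposited by the authors as lists with a signal value, a score of unstated scale, and a further value read here as −log10 q from its column position, since the lists have no header. Per the sample notes they were made from dm6 alignments of the ChIP reads and a control alignment, for each replicate and for the pooled reads, and then thresholded by the irreproducible discovery rate. Aligner, peak caller and cutoff: not given in the sources used here. Depth is unknown, and with counts unavailable no interval was computed.

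Gene spans and every annotated TSS came from Ensembl release 115 (BDGP 6.54); pseudogenes and transposable elements were left out. Summits and words were counted with Python 3.11.15, pandas 2.3.3 and numpy 2.4.6, tested on simulated data. No test was run: there is 1 group, and places and counts are descriptions beside all protein-coding genes. All 10 members and the genes nearest a window summit are named. In each chaperone family, those with a thresholded promoter summit and up to 2 without are named. The members and lists were chosen with earlier results of these data known. Lists on dm3 were not used.

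Alternatives were other distances, flanks and matching rules, the strongest 4498 thresholded regions, all pooled regions, and peaks present in all or in pairs of replicates. Of the chaperone list, 5 symbols matched no gene, 1 was a repeat and 4 were matched by synonym.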

Additional observations from a re-analysis of the deposited data

How the results depend on the processing

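Of 71 values under alternatives, 54 stayed within 1.5 times the reported one and 17 did not. Members with a promoter summit numbered 6; among peaks present in both other replicates when 1 was left out they numbered 4 to 5, members with a summit in the wider span 9 to 10 and window summits 9 to 11. Hsc70-4 was lost in each case, and Hsp23 was lost in those that required replicate 1. A promoter of 250 bp lost Hsp22 and Hsc70-4, and 1000 bp added Hsp67Ba. With flanks of 2 kb, members with a summit in the wider span numbered 8 and window summits 9. With flanks of 10 kb the numbers were 10 and 17.

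All pooled regions gave 21 window summits in place of 13, 26 other chaperones in place of 16 and 40.1% of protein-coding genes in place of 24.6%. The strongest 4498 regions gave 7 other chaperones and 15.5% of genes, and 0 window summits with CACGTG and 1 with TATAAA. Peaks present in all 3 replicates left 9 other chaperones; leaving out 1 replicate gave 9 to 13, the 9 without replicate 1, and 18.3% to 18.8% of genes. Words within 100 bp were found at 2 window summits for TTCNNGAA, 3 for GAGAG and 4 for TATAAA. Anywhere in the region, GAANNTTC was found at 6, TTCNNGAA at 4, a row of 3 heat-shock units at 1, GAGAG at 6 and TATAAA at 5.

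A left-out replicate is still part of the pooled list. No paired analysis was possible because there is 1 group and no result comes from a test. With 3 replicates, unknown depth and a signal value of unstated scale, places show order within a list and not amounts of bound protein. Tissues and sexes cannot be told apart, and no untagged sample was analysed here.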
